A study of Mus musculus with 5 samples.

Results

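The Akt-spheres of ES cell line 42 were compared with those of line 21. They are 2 of the 5 arrays of the series, 1 array for each line, chosen by their labels. Both lines are male mouse embryonic stem (ES) cells of strain 129, of the feeder-free E14tg2a family, that carry myr-Akt-Mer, a membrane-anchored Akt kinase which works only while 4-hydroxytamoxifen (4OHT) is present. For both sphere arrays 4OHT, used at 1 µM, was begun 3 days ahead of induction. Cells were then put through a blood differentiation protocol on OP9 stromal cells, and the floating spheres that arose were kept on OP9 in 4OHT and moved to a new layer every 4 days. OP9 cells were removed before RNA extraction by 30 minutes of adhesion to a dish. The labels call the result PGC-like, after primordial germ cells. The other 3 arrays are all of line 21 and are called ES-type here: ES cells without 4OHT, ES cells with 1 µM 4OHT, and ES-like cells that had reverted from line 21 spheres on fibroblast feeders after transient 4OHT. Line 42 has no ES cell array among those analysed here, and the labels do not say how the lines were derived. With 1 array each, a difference of the line, of its ES cells, of the culture and of the array cannot be told apart.

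Akt is the kinase downstream of phosphoinositide 3-kinase that carries growth factor signals for survival and growth, and its activation is known to help germ cells of the embryo to be turned back into pluripotent cells in culture. PGCs form from epiblast cells near the primitive streak, switch off the mesodermal genes of their neighbours, keep or regain many pluripotency genes and erase DNA methylation, including parental imprints. The 4 marker genes given for this comparison were Zscan4c, which marks the rare ES cells that resemble the embryo at the 2-cell stage, Dppa3 (also called Stella), a marker of PGCs and oocytes, T (brachyury), the T-box factor of the primitive streak, and Msx1, a homeobox target of BMP signalling in mesoderm.

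The sequences before the transcription start are shown for markers because the lines stood furthest apart at Zscan4c, whose array probe may also read its near-identical copies. RefSeq (GRCm38.p6) gave the 250 bases before the start for 3 of the 4 markers, Dppa3 being the other one, and Zscan4d is added as a copy of Zscan4c. Capitals mark the dinucleotide CG, the site of DNA methylation, which reads the same on both strands. Zscan4c lies at chr7:11005495-11005744 on the plus strand and Zscan4d at chr7:11166149-11166398 on the minus strand. T lies at chr17:8434173-8434422 on the plus strand and Msx1 at chr5:37824586-37824835 on the minus strand.
Zscan4c: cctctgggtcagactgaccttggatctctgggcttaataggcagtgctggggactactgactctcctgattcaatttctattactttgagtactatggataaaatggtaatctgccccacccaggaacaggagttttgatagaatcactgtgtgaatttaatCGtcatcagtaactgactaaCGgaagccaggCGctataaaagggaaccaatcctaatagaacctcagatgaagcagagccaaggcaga
Zscan4d: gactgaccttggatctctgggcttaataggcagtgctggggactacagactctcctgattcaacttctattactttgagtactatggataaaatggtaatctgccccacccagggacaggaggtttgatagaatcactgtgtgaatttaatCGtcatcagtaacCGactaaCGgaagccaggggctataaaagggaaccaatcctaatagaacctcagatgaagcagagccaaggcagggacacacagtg
T: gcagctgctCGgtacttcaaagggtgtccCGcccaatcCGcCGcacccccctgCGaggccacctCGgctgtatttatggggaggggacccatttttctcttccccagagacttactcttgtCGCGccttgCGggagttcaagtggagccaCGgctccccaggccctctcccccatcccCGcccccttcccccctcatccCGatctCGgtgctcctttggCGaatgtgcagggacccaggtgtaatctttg
Msx1: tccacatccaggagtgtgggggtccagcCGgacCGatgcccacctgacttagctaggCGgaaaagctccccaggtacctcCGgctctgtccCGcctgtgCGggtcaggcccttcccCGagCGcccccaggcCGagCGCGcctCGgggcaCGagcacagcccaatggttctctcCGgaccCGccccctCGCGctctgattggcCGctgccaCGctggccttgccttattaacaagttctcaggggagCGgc
The windows of Zscan4c and Zscan4d were identical at 232 of 261 aligned positions (88.9%) and held 3 CG each, a number reached by 71.0% of all 32851 promoter windows of this length. That of T held 14 (reached by 29.4%) and that of Msx1 20 (reached by 17.95%). Counting the CG-richest start of each gene, the 20 genes highest in line 42 had a median of 7 CG over the 13 that matched. The 20 lowest had a median of 17 over 13, and all compared genes had 17 over 8077. All genes at least 2-fold higher in line 42 had a median of 14 over the 654 that matched, and those at least 2-fold lower had 17 over 615. Methylation was not measured.

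Zscan4c read 12913 in line 42 spheres and 3.59 in line 21 spheres, against 1058 in ES cells without 4OHT and 1347 with it, and it had no value in reverted cells. It was the gene with the largest difference, log2 11.41, and line 42 spheres were above and line 21 spheres below every ES cell value. The line 21 value lies just above the lowest listed value of that array, 3.40, so the size of the difference is set by the low end of the scale. Dppa3 read 9198 in line 42 spheres and 223 in line 21 spheres (log2 5.31), against 435, 171 and 1626 in ES cells without 4OHT, with 4OHT and in reverted cells. Only the line 42 value of Dppa3 lay outside the range of the ES-type arrays.

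T went the other way. It read 19.9 in line 42 spheres and 193 in line 21 spheres (log2 -3.27), against 22.6, 15.4 and 305 in ES cells without 4OHT, with 4OHT and in reverted cells. Msx1 read 30.9 in line 42 spheres and 337 in line 21 spheres (log2 -3.46), against 28.2, 25.7 and 178 on the same 3 arrays. Line 42 spheres were thus at or just above the level of ES cells for both genes, and line 21 spheres and the cells reverted from them were high.

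**Figure D1:**
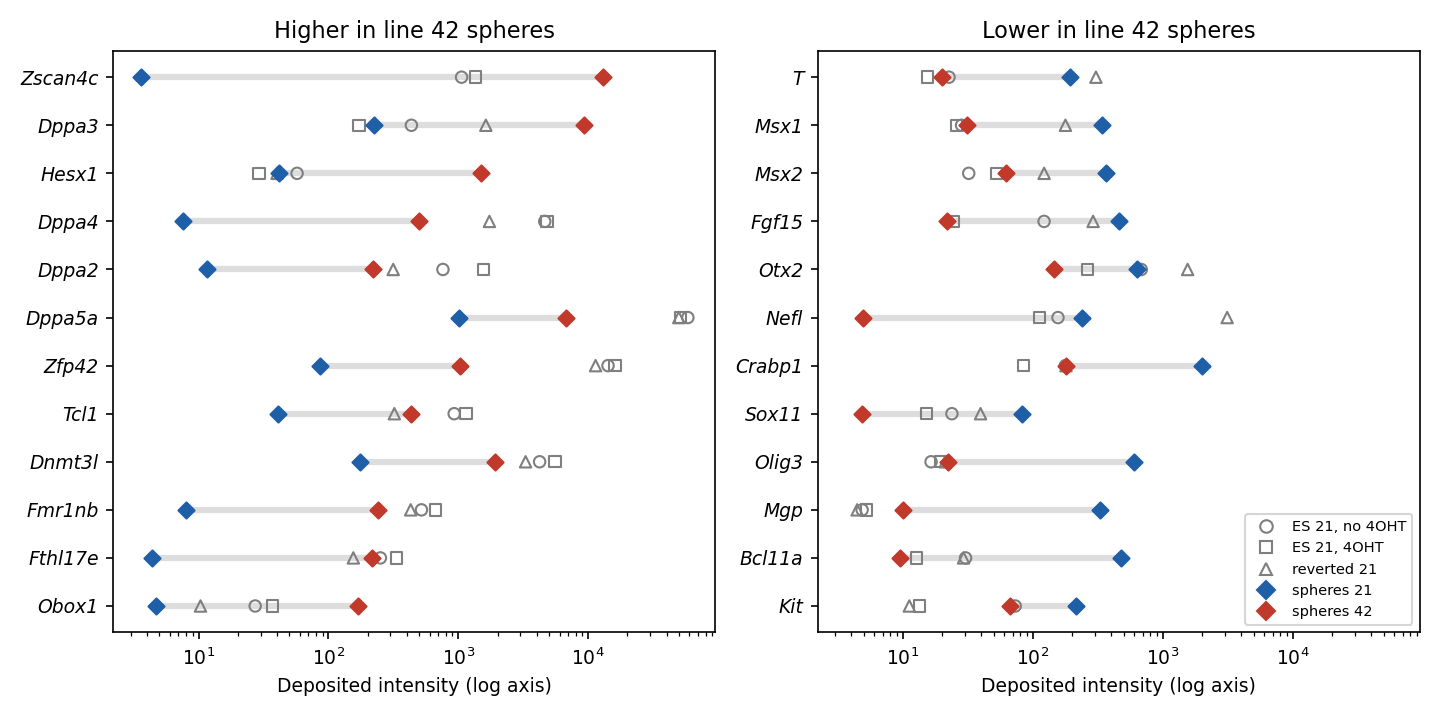
Deposited intensity (log axis) of 24 genes on the 5 arrays, 1 symbol per array, with a grey bar joining the sphere arrays of line 21 (blue) and line 42 (red). Zscan4c runs from 3.59 to 12913 and Dppa3 from 223 to 9198, while T and Msx1 of line 42 lie beside the ES cells.

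Values are intensities in arbitrary units with a common median of about 50 on every array, and a difference is the log2 of value plus 1 in line 42 spheres minus that in line 21 spheres, after median centring. Of 9954 genes bright enough on at least 1 sphere array to be compared, 783 were at least 2-fold higher in line 42 (7.87%) and 777 at least 2-fold lower (7.81%). Together 15.7% lay 2-fold apart, and 66 genes 10-fold. A gene that reached the brightness filter on 1 sphere array only had to differ, as for 220 of the higher and 282 of the lower genes. Such are all compared genes that read under 28.6 in line 42 or under 29.2 in line 21 spheres. Their direction follows from the filter. Of the 8871 genes bright on both arrays, 563 were higher and 495 lower. List counts below are therefore also given for members bright on both arrays, and a count over the compared members is a description and no support. Beside the 15.7%, shares 2-fold apart were 83.3% (2-cell-like), 47.1% (core) and 35.3% (naive pluripotency), 45.0% (late germ cells) and 57.1% (primed epiblast). They were 41.7% for streak and mesoderm, 75.0% for neural, 52.4% for imprinted, 55.6% for stroma and 8.3% for adipocyte genes. The spread of the differences over genes was 0.84 (SD, log2). By the same rule 4.95% of genes lay 2-fold apart between ES cells with and without 4OHT (SD 0.50) and 11.5% between reverted and ES cells (SD 0.70). The spheres of the lines thus lay further apart than either of these pairs. No pair has a replicate, and a 2-fold difference is a size and not a test. For 86 genes with a further probe, probes differed by a median of 0.49 (log2) over 93 probe pairs. Of 14 pairs whose main probe was 2-fold apart, the other probe had the same sign in 10 and was also 2-fold apart that way in 4.

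**Figure D2:**
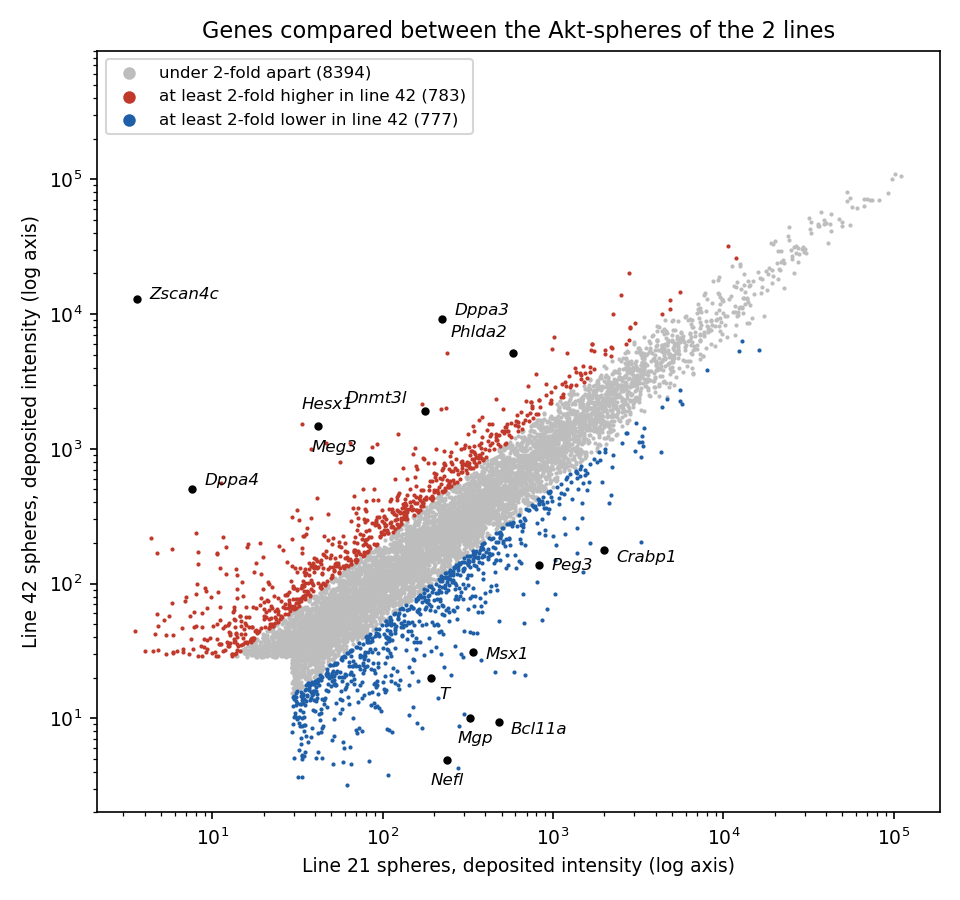
Deposited intensity of each of 9954 compared genes in line 21 spheres (horizontal) and line 42 spheres (vertical), both on log axes, with 783 genes at least 2-fold higher in red and 777 lower in blue. The empty lower left corner is the filter on dim genes, and named genes are black.

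Some of the differences ran along chromosomes. With genes in RefSeq order, 5 long runs of neighbours were shifted together: 400 genes of chromosome 4 from Elavl2 to 1500002C15Rik (median log2 0.71), 118 of chromosome 12 from Acot2 to Akt1 (0.69), 111 of chromosome 13 from Rsl1 to Ddx4 (-0.90), 135 of chromosome 14 from Ift88 to Abcc4 (-0.74) and 274 of the 304 genes of chromosome 16 (0.60). This search was made after the data were seen, by a running median of 31 genes. Within the runs the sign was shared by most genes, for example 350 of 400 on chromosome 4 and 103 of 111 on chromosome 13. The other 228 genes of chromosome 4 had a median of 0.00, and the other 30 of chromosome 16 had 0.44. Of the 1038 genes in the runs, 25.2% were at least 2-fold higher and 10.4% lower, against 5.84% and 7.50% of the 8916 outside. Because the runs were picked by this same difference, their shared signs and these shares follow from the choice and are no support for the runs.

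Each run was set against ES cells without 4OHT, an array that all these values share. In line 21 spheres the medians were -0.67 on chromosome 4, -0.50 on chromosome 12 and -0.64 on chromosome 16, and in reverted cells of that line -0.68, -0.62 and -0.64. Line 42 spheres had medians of -0.00, 0.04 and 0.01 there. The run of chromosome 14 was higher in line 21 spheres (0.64) and reverted cells (0.57), with -0.16 in line 42 spheres. On chromosome 13 line 42 spheres stood apart (-0.86), against 0.01 in line 21 spheres and 0.11 in reverted cells. ES cells with 4OHT had medians from -0.08 to 0.00 in all 5 runs. So 4 of the runs were seen in line 21 spheres and in the cells reverted from them and not between ES cells with and without 4OHT. DNA copy number was not measured, and its part in these runs was not tested. Below, a gene that lies in such a run is named with its chromosome.

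**Figure D3:**
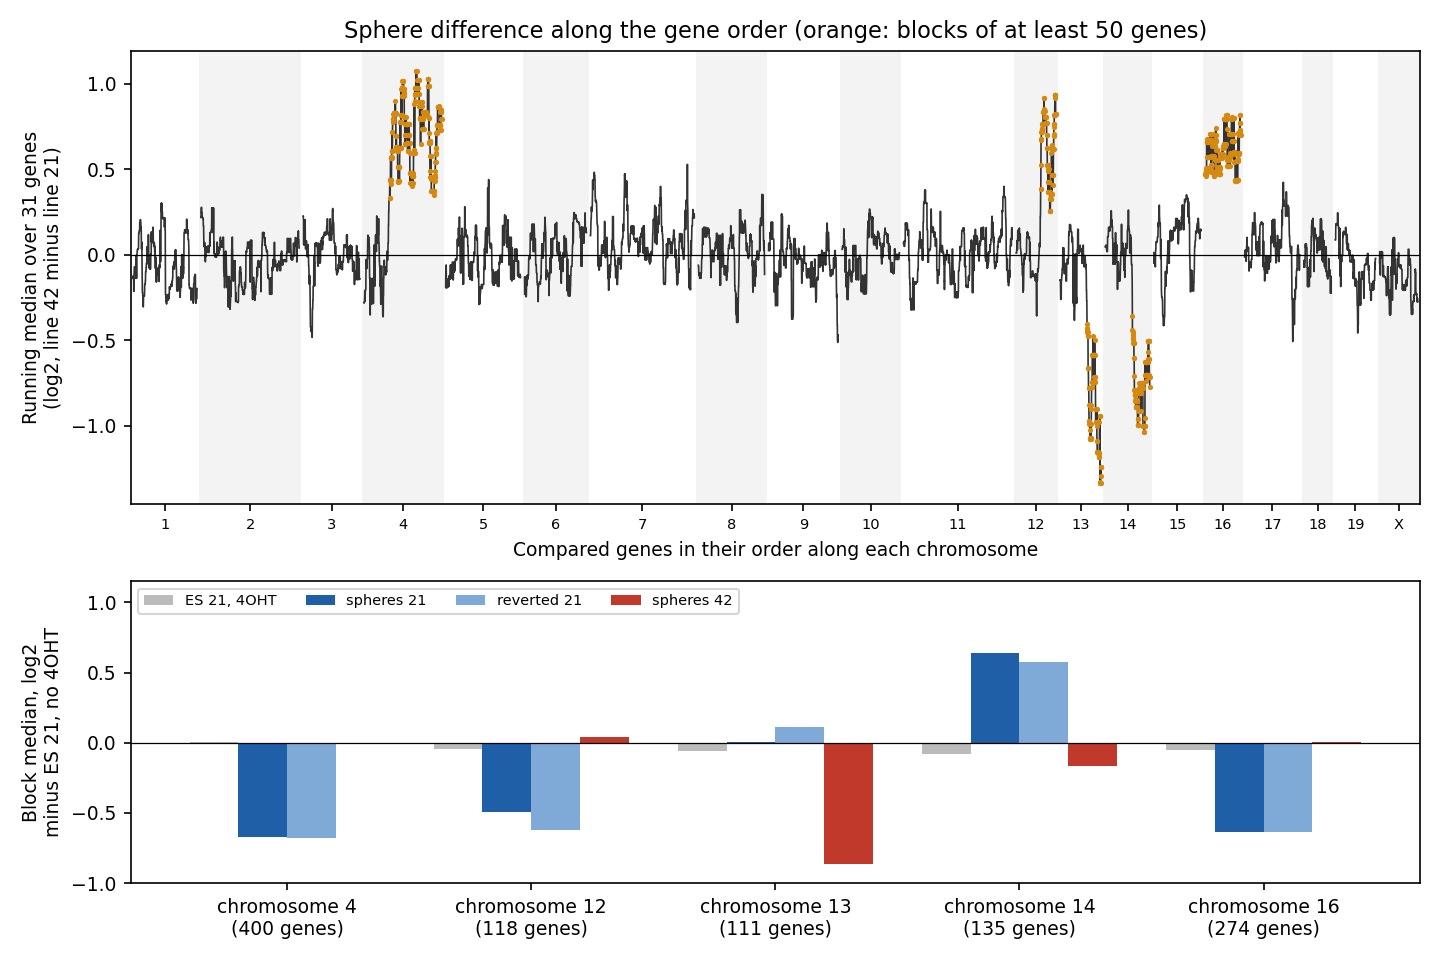
Upper panel, running median over 31 genes of the log2 difference between the spheres (line 42 minus line 21) along each chromosome, with the 5 runs in orange. Lower panel, median log2 difference of each run from line 21 ES cells without 4OHT on the other 4 arrays, where spheres and reverted cells of line 21 have like values on chromosomes 4, 12, 14 and 16 and only line 42 spheres are low on chromosome 13.

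Pluripotency genes were divided. Of 17 compared core pluripotency genes, 8 were at least 2-fold higher in line 42 spheres and 0 lower, with a median of 0.91 against 0.03 over all genes. Of the 15 bright on both arrays 6 were higher. Outside the chromosome runs 5 of 14 were higher and the median was -0.08. Of the developmental pluripotency-associated genes, Dppa4 and Dppa2 entered through line 42 alone, so that they are higher there follows from the filter. Dppa4, a chromatin protein of pluripotent cells, read 499.6 in line 42 and 7.65 in line 21 spheres (log2 5.80), and its partner Dppa2 read 221 and 11.5 (4.09). Both lie in the run of chromosome 16, beyond whose median they were still apart by 5.21 and 3.50. Dppa5a, an RNA-binding protein, read 6732 and 1014 (2.68). Zfp42 (Rex1), a zinc-finger gene of naive ES cells, read 1030 and 86.1 (3.51). These 4 genes were lower in both sphere lines than on the ES-type arrays, where Dppa4 read 1733 to 4803, Dppa2 315 to 1562, Dppa5a 49687 to 58362 and Zfp42 11370 to 15996. Line 42 spheres therefore lay between line 21 spheres and the ES-type arrays for them.

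Other core genes higher in line 42 were Utf1, a chromatin factor of ES cells (7842 against 2821, log2 1.42), Fbxo15 (1.54), Gdf3, a TGF-beta family ligand (1.35), and Lin28a, which blocks let-7 maturation and lies in the run of chromosome 4 (1.25). Nanog was under 2-fold apart at 4003 and 5523 (-0.52), as were Sall4 (-0.28) and Zfp281 (-0.39). Nr0b1 (104 and 106) and Eras (49.2 and 57.9) were at equally low levels in both lines, against at least 1189 on the ES-type arrays. In the naive pluripotency list, 5 of 17 were higher and 1 lower, with a median of -0.08. Of the 15 bright on both arrays 5 were higher and 1 lower. Tcl1, an Akt coactivator of ES cells on chromosome 12, read 433 in line 42 and 40.9 in line 21 spheres (3.32), and Klf2 read 774 and 228 (1.71). Nr5a2, a nuclear receptor, was lower at 63.9 against 234 (-1.91). Klf4 (97.4 and 134) and Stat3 (45.4 and 57.2) were low in both lines.

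In the list of the 2-cell-like state, 5 of 6 compared genes were higher in line 42, with a median of 1.87, and all 5 were bright in line 42 spheres only. The sixth, Eif1a, was bright on both arrays and differed by 0.79. The other 7 of the 13 on the array had no value on a sphere array or were too dim on both to enter. Apart from Zscan4c the 5 were dim. Tdpoz3 read 41.3 in line 42 and 5.35 in line 21 spheres (log2 2.68), Usp17lb 67.3 and 15.8 (1.97), Tdpoz4 73.3 and 20.1 (1.77) and the arginase gene Arg2 32.4 and 9.29 (1.65). Tdpoz3, Tdpoz4 and Usp17lb belong to multicopy families, so a probe can read several copies. Each of these 4 was higher in line 42 spheres than on any of the other 4 arrays. The oocyte homeobox gene Obox1 read 169 and 4.71 (4.85), against 10.3 to 36.9 on the ES-type arrays. Of the oocyte and maternal list, 2 of 8 were higher and 0 lower (median 0.10, and 1 of 6 bright on both arrays): Ooep, of the subcortical maternal complex (73.0 against 32.5), and the egg coat gene Zp3 (47.1 against 19.2). The ES-type arrays read at least 2013 for Ooep and at least 227 for Zp3, so both sphere lines were low.

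Further germline genes are described here because some were among the largest differences. The 4 compared Magea genes, which are testis antigens, and both compared Fthl17 genes entered through line 42 alone, so that they are higher there follows from the filter and their values are only described. The Magea genes ran from Magea4 at 31.1 against 10.4 (log2 1.43) to Magea2 at 98.8 against 8.17 (3.39). Fthl17e and Fthl17a, ferritin-like genes of early germ cells, read 216 against 4.35 (5.29) and 61.4 against 7.84 (2.77). Fmr1nb, a testis antigen, read 239 in line 42 and 8.05 in line 21 spheres (4.68), against 429 to 668 on the ES-type arrays. Sohlh2, a germ cell helix-loop-helix factor, read 165 and 10.6 (3.78), against 10.3 to 94.3. Rpl39l and Rps4l, copies of ribosomal protein genes, read 1528 against 33.7 (5.41, chromosome 16) and 996 against 38.1 (4.62). In line 21, ES cells read 7387 or more for Rpl39l and 15352 or more for Rps4l, far above both sphere lines.

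Of 20 later germ cell genes compared, out of 33 on the array, 7 were higher and 2 lower in line 42, with a median of 0.16, or 0.63 outside the runs. Dazl, Stra8 and Spo11 entered through line 42 alone, and of the 17 bright on both arrays 4 were higher and 2 lower. Tdrd12, a piRNA pathway gene, read 446 in line 42 and 68.1 in line 21 spheres (log2 2.64), against 651 to 737 on the ES-type arrays. Dazl, an RNA-binding protein of germ cells, read 32.8 and 6.71 (2.08). Tex19.1 read 954 and 252 (1.87), Stra8, the retinoic acid-induced entry gene of meiosis, 54.9 and 13.4 (1.91), and Sycp3, of the synaptonemal complex, 94.7 and 33.7 (1.41). Tdrd7 (41.2 against 149, -1.89) and Tdrd5 (93.6 against 224, -1.30), both of germ granules, were lower. The late PGC marker Ddx4 was alike at 426 and 385, close to 405 to 470.0 on the ES-type arrays.

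Genes that define early PGCs were mixed. Of 23 compared, 7 were higher and 3 lower in line 42, with a median of -0.04, and of the 20 bright on both arrays 5 were higher and 2 lower. The share 2-fold apart was 43.5%, against 15.7% of all genes. Hesx1, a homeobox gene of ES cells and the anterior embryo that is also listed with PGC genes, read 1488 in line 42 and 41.6 in line 21 spheres (log2 5.07), against 29.1 to 57.3 on the ES-type arrays. Line 42 spheres alone were high for it. Nanos3, needed for PGC survival, read 1084 and 476 (1.13), both above the 219 to 326 of the ES-type arrays. Tfap2c, a PGC specification factor, read 1581 and 1943 (-0.35), also above the 497 to 999 there, and Prdm14 read 227 and 205 (0.09), above 121 to 151. Line 21 spheres were higher for 3 genes of the list. Dnd1, an RNA-binding partner of Nanos proteins, read 393 in line 42 and 2142 in line 21 spheres (-2.50), against 172 to 223. Kit, the stem cell factor receptor, read 66.5 and 213 (-1.72), and Prdm1 (Blimp1), the specification repressor, read 21.1 and 47.4 (-1.18), with 30.8 to 55.8 on the ES-type arrays. Prdm1 entered through line 21 alone, so its direction follows from the filter. Ifitm3 differed by -0.56 and Alpl by 0.12. Thus, of the genes named, Tfap2c, Nanos3 and Prdm14 were above the ES-type arrays in both lines, and Dnd1 in both but most in line 21. Dppa3 and Hesx1 were above them in line 42 alone and Kit in line 21 alone.

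Genes of the primed epiblast were lower in line 42: 8 of 14 compared, out of 18 on the array, were at least 2-fold lower and 0 higher, with a median of -1.18. Fgf15 and Lef1 entered through line 21 alone, so that they are lower in line 42 follows from the filter. Of the 12 bright on both arrays 6 were lower. Fgf15, a growth factor of the postimplantation embryo, read 21.96 in line 42 and 458 in line 21 spheres (log2 -4.37), against 24.4 to 290.0 on the ES-type arrays. Otx2, which drives the exit from the naive state, read 146 and 634 (-2.16), against 263 to 1549. The Ets factor Etv4 read 61.3 and 246 (-2.04), the Wnt effector Lef1 13.2 and 71.6 (-2.41), the cadherin Cdh2 88.7 and 428 (-2.31) and Zic2 158 and 413 (-1.43). Dnmt3b read 829 and 1890.3 (-1.24). Fgf5, the usual primed marker, differed by less, at 161 and 232 (-0.57), and both values were above those of the ES-type arrays. Nodal (-0.98) and Lefty1 (-0.82) were also on the lower side without reaching 2-fold.

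Primitive streak and mesoderm genes were lower for 9 of 24 compared, out of 37 on the array, and higher for 1, with a median of -0.42. Of the 9, T, Mesp1, Wnt8a, Lhx1 and Bmp4 entered through line 21 alone, and of the 18 bright on both arrays 4 were lower and 0 higher. Beside T and Msx1, Msx2 read 61.5 in line 42 and 365 in line 21 spheres (log2 -2.60), Wnt8a 10.1 and 67.1 (-2.67), Lhx1 14.1 and 76.1 (-2.41), Mesp1 8.02 and 34.4 (-2.03) and the activin antagonist Fst 76.5 and 277 (-1.90). Bmp4, the inducer of PGCs, read 7.99 and 75.5 (-3.14), against 462 to 903 on the ES-type arrays, so it was low in both lines. Other streak genes were alike: Eomes read 136 and 184 (-0.48), Wnt3 122 and 91.8 (0.36) and Evx1 145 and 182 (-0.37). The difference was therefore carried by some members and not by the list as a whole.

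In the list of BMP and Nodal signalling, 2 of 26 were higher and 3 lower (median -0.34), with Bmp4 the lowest. The share 2-fold apart was 19.2%, near the 15.7% over all genes, and of the 23 bright on both arrays 2 were higher and 2 lower. Id3, a direct BMP target on chromosome 4, was higher at 5480 against 985 (log2 2.42), and Id4 was lower at 38.2 against 81.6 (-1.13). Its relatives Id1 (1549 against 2730, -0.87) and Id2 (1325 against 2107, -0.72) were on the lower side without reaching 2-fold. In the Wnt list, 2 of 26 were higher and 7 lower (median -0.25), a share of 34.6%, and 2 and 3 of the 21 bright on both arrays. Among the lower were the secreted antagonists Frzb (8.46 against 72.9, -3.02) and Sfrp1 (42.4 against 227, -2.45). The receptors Fzd3 (12.1 against 90.4, -2.85, chromosome 14) and Fzd2 (52.7 against 245, -2.25) were lower too. Frzb and Fzd3 entered through line 21 alone. The receptor Fzd8 was higher (116 against 35.2, 1.64).

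Of 16 neural genes compared, out of 28 on the array, 11 were lower in line 42 and 1 higher, with a median of -2.24, which was -1.02 over 26 genes with no filter. Neurog3, Sox11, Dlx5, Irx3, Nefl and Nefm entered through line 21 alone, and of the 10 bright on both arrays 5 were lower and 1 higher. Outside the chromosome runs 9 of 13 were lower, with a median of -1.90. Nefl, the light neurofilament, read 4.92 in line 42 and 239 in line 21 spheres (log2 -5.39, chromosome 14), and 3121 in reverted cells. Crabp1, a retinoic acid-binding protein, read 178 and 1997 (-3.53), against 84.4 to 179 on the ES-type arrays. Fabp7 of radial glia read 34.5 and 266 (-2.96), Sox11 4.85 and 82.8 (-3.89) and Dlx5 4.70 and 58.5 (-3.44). Neurog3 read 8.42 and 169 (-4.23) and Neurod1 29.6 and 175 (-2.58), but ES cells without 4OHT read 292 and 645, so for these genes line 42 spheres were low rather than line 21 spheres high. Among the largest differences outside the lists, Olig3, a factor of the dorsal neural tube, read 22.1 and 594 (-4.74), against 16.4 to 21.1 on the ES-type arrays. Bcl11a, a zinc-finger repressor, read 9.45 and 479 (-5.57), against 12.6 to 30.3. Tubb3, a neuronal tubulin, did not follow (601 and 451, 0.36), nor did Neurog1 (0.06) and Zic1 (-0.19), and the neuronal gene Stmn2 was higher (486 against 209, 1.16).

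**Figure D4:**
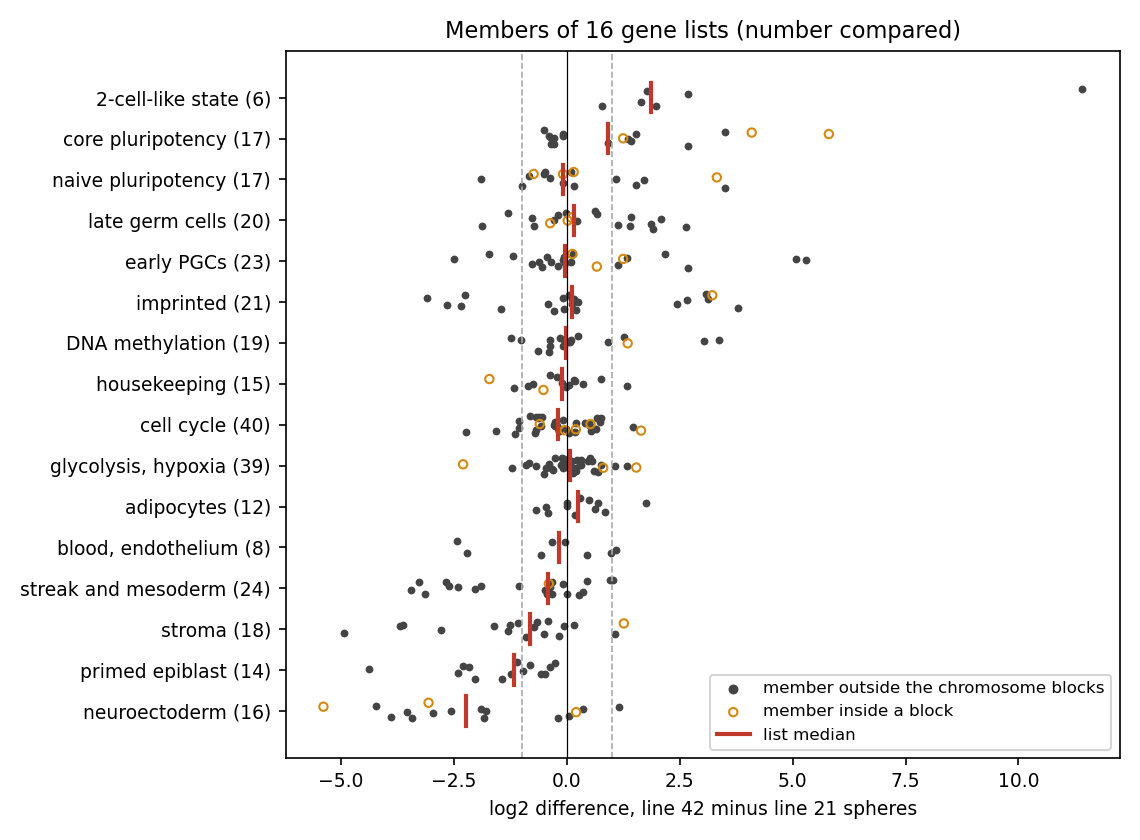
Log2 difference of line 42 minus line 21 spheres for each compared member of 16 gene lists, with the number compared in brackets, list medians in red and members in the chromosome runs as open orange circles. Dashed lines mark 2-fold, and medians run from 1.87 for the 2-cell-like state to -2.24 for neuroectoderm. With no filter on dim genes these are 1.65 and -1.02.

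Imprinted genes split in both directions: of 21 compared, 6 were at least 2-fold higher in line 42 and 5 lower, with a median of 0.10, and of the 19 bright on both arrays 5 were higher and 4 lower. Dividing them by the allele that is usually expressed, a choice made after the values were seen, 4 of 6 maternally expressed genes were at least 2-fold higher and 0 lower. Of 11 paternally expressed genes, 2 were higher and 5 lower. The other compared genes, Gnas (0.15), Tssc4 (0.24), Cd81 (0.11) and Xlr3b (-0.28), were put in neither class and were under 2-fold apart. Over all genes 7.87% were higher and 7.81% lower. Slc22a18, among the maternally expressed genes, entered through line 42 alone, and Magel2, among the paternally expressed ones, through line 21 alone. The split is therefore only described. H19, a noncoding RNA, read 1020.3 in line 42 and 154 in line 21 spheres (log2 2.67), against 50.6 to 393 on the ES-type arrays. Phlda2, a growth restraint of the placenta, read 5123 and 583 (3.08), against 1071 to 9049. Meg3, a noncoding RNA on chromosome 12, read 820.3 and 83.9 (3.22), with 545 and 755 in ES cells and 122.5 in reverted cells. Slc22a18 read 187 and 12.1 (3.79), against 11.1 to 43.4. Cdkn1c, a maternally expressed cell cycle inhibitor, read 2790 in line 42 spheres, had no value in line 21 spheres, and read 1367 and 3171 in ES cells and 20.0 in reverted cells. H19, Phlda2, Slc22a18 and Cdkn1c are neighbours in the imprinted region of distal chromosome 7. The region did not differ as a whole: Ascl2 (0.10), Tssc4 (0.24) and Cd81 (0.11), which also lie in it, were under 2-fold apart. For Meg3, Phlda2 and Slc22a18, reverted cells were nearer to line 21 spheres than to ES cells.

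Of the 5 paternally expressed genes that were lower in line 42, Peg3, Ndn and Magel2 were above the ES-type arrays in line 21, while Mest and Sgce were below them in line 42. Peg3 read 136 in line 42 and 833 in line 21 spheres (log2 -2.66), against 18.9 to 241 on the ES-type arrays. Ndn, a growth suppressor of the Prader-Willi region, read 141 and 648 (-2.25), against 54.7 to 290.3, and its neighbour Magel2 read 6.69 and 36.5 (-2.34), against 4.44 to 30.1. Mest read 42.7 and 360 (-3.10), against 104 to 464, and Sgce 70.2 and 188 (-1.46), against 133 to 429. Igf2, the paternally expressed growth factor beside H19, was higher together with it at 299 against 32.1 (3.13), as was the amino acid transporter Slc38a4 (506 against 89.4, 2.43). Snrpn (0.20), Impact (0.04), Plagl1 (-0.05) and Igf2r (-0.41) did not reach 2-fold. Allele of origin was not measured.

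**Figure D5:**
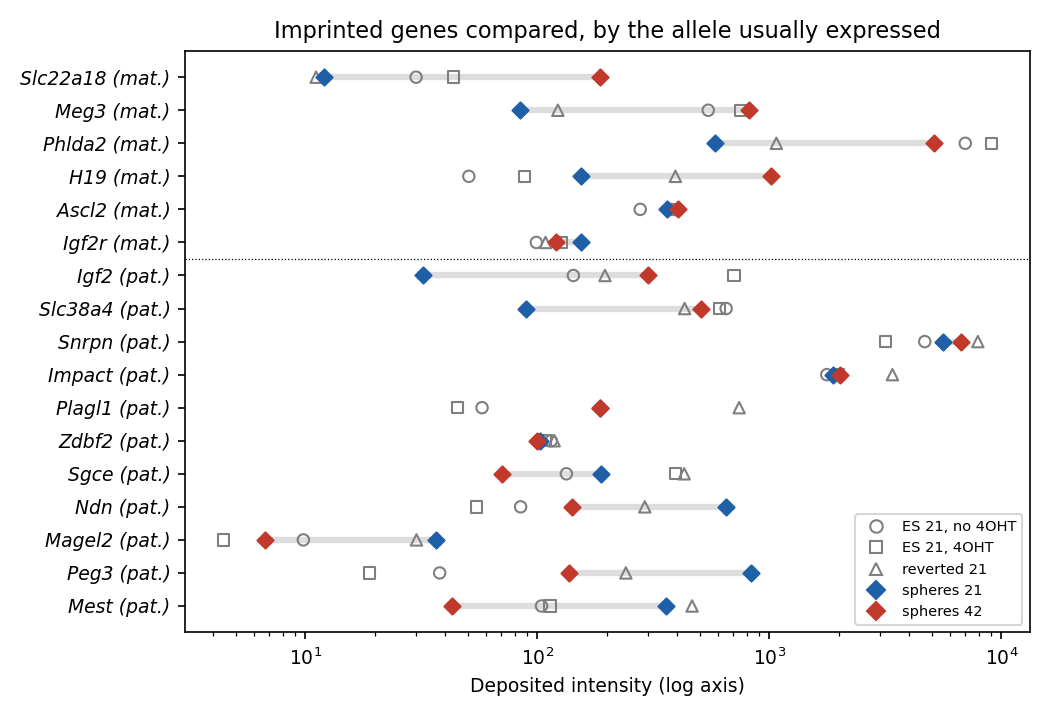
Deposited intensity (log axis) of 17 imprinted genes on the 5 arrays, with maternally expressed genes above the dotted line and paternally expressed genes under it, and a bar joining the spheres of line 21 (blue) and line 42 (red). For Phlda2 line 42 reads 5123 and line 21 583, while Peg3 reads 136 and 833.

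Genes of DNA methylation were mixed, with 4 of 19 higher, 2 lower and a median of -0.02. The share 2-fold apart was 31.6%, against 15.7% of all genes. All 19 were bright on both arrays. Dnmt3l, the cofactor that sets imprints in germ cells, read 1909 in line 42 and 176 in line 21 spheres (log2 3.38), against 3289 to 5530 on the ES-type arrays. The cytidine deaminase family gene Apobec2 read 2001 and 236 (3.03), against 119 to 888, so it was high in line 42 alone. Dnmt3b and the demethylase Tet1 (198 against 384, -1.01) were lower. Dnmt1 (893 and 1137), its guide Uhrf1 (1398 and 1334) and Dnmt3a (122 and 154) were under 2-fold apart.

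Markers of the feeder layer were checked, since stroma carried over would add mesenchymal genes. In the OP9 stroma list, 8 of 18 compared were lower in line 42 and 2 higher, with a median of -0.82. Mgp, Bgn, Cxcl12, Col6a1 and Loxl1 entered through line 21 alone, and of the 9 bright on both arrays 3 were lower and 1 higher. The sum over its 29 genes was 3653 in line 21 and 3302 in line 42 spheres, against 3585 and 4159 for the ES cell arrays, whose cells grow without feeders, and 6083 in reverted cells. Single bright members weigh on these sums, which give no measure of the share of stroma. Fstl1, on chromosome 16, read 1836 in line 42 and 737 in line 21 spheres, and Sparc read 354 and 719. Mgp, a matrix protein, read 10.1 in line 42 and 328 in line 21 spheres (log2 -4.94), against 4.43 to 5.21, and the proteoglycan Bgn read 10.6 and 143 (-3.70). Cxcl12 read 8.21 and 109 (-3.63) and Serpinf1 44.5 and 301 (-2.78). The collagens Col1a1 (17.0 and 17.5) and Col3a1 (10.0 and 19.8) and decorin (Dcn, 6.53 and 5.49) were under the ES-type arrays in both lines, and Kitl had no value on either sphere array. Other collagens of the list were lower in line 42 than in line 21 spheres: Col1a2 (42.0 and 101), Col5a1 (171 and 310) and Col6a1 (9.96 and 31.5). Col6a2, too dim to be compared, read 21.4 and 13.3. OP9 layers also form fat cells, whose marker Fabp4 was alike at 143 and 183, against 4.63 to 6.07 on the ES-type arrays, and of 12 compared adipocyte genes 1 was higher and 0 lower (median 0.24). Of the 10 adipocyte genes bright on both arrays 1 was higher and 0 lower. How much of the mesodermal and matrix differences came from OP9 cells was not tested.

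Other lineages had few members to compare. Of blood and endothelial genes, 1 of 8 was higher and 2 lower, a share of 37.5% against 15.7% of all genes (median -0.18, and 0.14 with no filter), the lower ones being Etv2 (36.8 against 167) and the VEGF receptor Flt1 (20.8 against 112). Of the 6 bright on both arrays 1 was higher and 1 lower. Of endoderm genes 1 of 8 was higher and 1 lower (median 0.40), of trophectoderm genes 1 of 10 was higher and 0 lower (0.07), and of Hox genes 0 of 10 were higher and 2 lower (-0.22). Among the members of these 3 lists that were bright on both arrays, 0 were 2-fold apart. The labels call both lines male, and both compared Y-linked genes were lower in line 42, Zfy1 entering through line 21 alone. Kdm5d read 73.0 in line 42 and 171 in line 21 spheres, against 76.7 to 143 on the ES-type arrays, while Zfy1 read 10.8 and 300 (log2 -4.72), against 89.5 to 249.

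In the Akt and PI3K list, 4 of 27 were higher and 4 lower in line 42 (median -0.24). Of the 22 bright on both arrays 3 were higher and 2 lower. The insulin-like growth factor receptor Igf1r read 9.04 in line 42 and 29.7 in line 21 spheres (log2 -1.67), and the phosphatase Inpp5d 32.8 and 7.75 (1.90). Both entered only through the array where they were higher, close to its limit, so their directions follow from the filter. Akt1 itself was higher at 348 against 123 (1.44) at the end of the chromosome 12 run, and whether its probe also reads the transgene was not tested. Of cell cycle genes 2 of 40 were higher and 5 lower (median -0.19), a share of 17.5% near the 15.7% over all genes. Of the 39 bright on both arrays 2 were higher and 4 lower. The cyclin Ccnd2 read 945 against 4300.3 (-2.24), both above the 57.9 to 214 of the ES-type arrays. Of adhesion genes 3 of 23 were higher and 5 lower (median -0.34), and of the 21 bright on both arrays 2 were higher and 5 lower. The lower ones included Esrp1, an epithelial splicing factor (64.9 against 923, -3.86), the gap junction gene Gja1 (83.5 against 1025, -3.65) and fibronectin, Fn1 (168 against 1386, -3.09). For Gja1 both lines were under the 7137 to 7718 of the ES-type arrays, and line 42 more so. Of p53 targets 4 of 21 were higher and 1 lower (median 0.52), among them Perp (1522 against 437, 1.75). All 21 were bright on both arrays. Over all genes 15.7% lay 2-fold apart. The shares were 29.6% for Akt and PI3K, 34.8% for adhesion and 23.8% for p53 targets.

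Lists of general cell functions had shares of 2-fold genes on both sides of the 15.7% over all genes. They had 3 of 39 higher and 2 lower for glycolysis and hypoxia (12.8%), 1 of 24 and 2 for amino acid and endoplasmic reticulum stress (12.5%), 1 of 28 and 1 for Polycomb and chromatin (7.1%), 2 of 16 and 1 for interferon response (18.8%) and 1 of 15 and 2 for housekeeping genes (20.0%). Their medians lay between -0.27 and 0.07. Of members bright on both arrays, 3 of 38 were higher and 1 lower for glycolysis and hypoxia and 1 of 23 and 1 for stress. These counts were 0 of 26 and 0 for Polycomb and chromatin, 1 of 13 and 0 for interferon response and 1 of 15 and 2 for housekeeping genes. Of the metallothioneins, which bind zinc and belong to no list, 3 of 4 compared were higher in line 42, with Mt1 at 13809 against 2511 (log2 2.41) and Mt2 at 20191 against 2777 (2.81), while reverted cells read 1155 and 2565. ES cells read 16500 or more for both. Mt4 (59.5 against 4.73, 3.35) entered through line 42 alone, and Mt3 was under 2-fold apart (55.6 against 41.1, 0.37). They were chosen after their values were seen.

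Other genes among the 20 largest in each direction belonged to no list. Higher in line 42 were Mep1b, a metalloprotease (562 against 11.3, log2 5.46), with 18.4 to 134 on the ES-type arrays, and Fabp3, a fatty acid carrier on chromosome 4 (5159 against 239, 4.37), with 1672 to 12069. Lower were Igf2bp3, an oncofetal RNA-binding protein (21.0 against 689, -5.02), and Hs6st2, a heparan sulfate sulfotransferase (3.82 against 107, -4.54). Igf2bp3 read 461 to 482 and Hs6st2 91.5 to 153 on the ES-type arrays, so here line 42 spheres were the array that stood apart. Trh, thyrotropin-releasing hormone, read 54.0 in line 42 and 862 in line 21 spheres (-4.02) and 23511 in reverted cells. S100a4, a calcium-binding protein, read 8.69 and 280 (-4.91), with 361 in reverted cells and 10.5 to 19.6 in ES cells.

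Values on only 1 sphere array were mostly dim. In line 42 spheres 758 genes had a value and in line 21 spheres none, but only 11 of them reached the brightness filter. Beside Cdkn1c the brightest were A430060F13Rik (236), Ly6k (149) and the X-linked homeobox gene Rhox13 (94.4, with 101 to 139 on the ES-type arrays). The reverse held for 598 genes, of which 6 reached the filter, among them Hoxc6 (42.9), Zfp521 (41.1) and Igfbp7 (40.8). An empty cell gives no fold. Of 3330 compared probes that carry no gene name, 8.83% were at least 2-fold higher in line 42 and 6.34% lower.

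Set against the range of the 3 ES-type arrays, which are all of line 21, neither sphere line was the one that always departed. Of 769 genes 2-fold higher in line 42 with 5 values, 202 lay in that range in line 42 and under it in line 21, 200 lay in it in line 21 and above it in line 42, and 191 lay above it in line 42 and under it in line 21. For 83 genes both lines were under it and for 57 both were above it. Of 763 genes 2-fold lower, 184 lay in the range in line 42 and above it in line 21, 169 lay in it in line 21 and under it in line 42, and 207 were under it in line 42 and above it in line 21. To set a spread beside the differences, limma borrowed the variation of the 3 ES-type arrays, which includes their conditions, and called 0 of 9910 genes at an adjusted p of 0.05. It gave 945 genes an unadjusted p under 0.05 against 495.5 by chance, and the smallest adjusted p was 0.0835, for Igf2bp3, Mgp and Olig3. That fit assumes that a lone sphere array varies as ES-type arrays do.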

How the data were processed

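The values are probe intensities on a linear scale that the authors deposited for 22871 probes on each of 5 one-colour Toray arrays. Per the labels' protocols, total RNA was amplified to amino allyl antisense RNA and coupled to Cy5. How background was corrected, how arrays were normalized and when a cell was left empty is not stated by the labels or the file. The lowest listed value was 2.96 to 3.66, the median about 50 on each array, and 6.09% to 9.11% of probes were empty and were not filled in. The number of arrays limits the precision, and nothing says whether they came from separate cultures.

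Probes were named from the platform annotation (16264 with 1 symbol, 6607 with none, 0 with several), and 3787 symbols were updated through the RefSeq gene table of GRCm38.p6, 61 being kept as given. That table also gave the gene order, with 9916 compared genes placed. Probes were given no coordinates, since neither labels nor file name a build, and the only coordinates printed are those of the RefSeq promoter windows of GRCm38.p6. A gene is its probe with the highest mean. Values were taken as log2(value + 1) and centred on the median of the 18884 probes listed on all arrays, which moved an array by -0.06 to 0.08. A gene was compared with a value on both sphere arrays and at least the 40th percentile (28.6 to 29.2) on 1 of them. Differences of dim genes are understated by the pseudocount.

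Without replicates the lines have no test of their own, and the p-values given come only from the check with the spread of the ES-type arrays. Genes at least 2-fold apart were counted, and each of 29 gene lists was described by its counts and its median. Python 3.11.15 (pandas 2.3.3, numpy 2.4.6) was used, and limma 3.58.1 in R 4.3.3 for the check with the spread of the ES-type arrays (2 residual degrees of freedom, Benjamini-Hochberg adjustment), which was tested on simulated data. Chromosome runs are at least 50 genes whose running median over 31 genes reached 0.35 in size, with gaps of at most 10 genes.

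The genes named are the 4 markers, the 20 largest differences in each direction, of each list up to 6 members 2-fold apart in each direction, the 8 brightest with a value on 1 sphere array only, and the Y-linked genes. List members named as alike, and the Magea, Fthl17 and metallothionein genes, were picked after their values were seen. The comparison, its markers and the lists were chosen with earlier results of these data known. Alternatives were other pseudocounts, normalizations, filters, probe rules and folds, and leaving out or correcting for the chromosome runs.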

Additional observations from a re-analysis of the deposited data

Results flagged for a closer look

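Spheres of the lines lay at least 2-fold to opposite sides of line 21 ES cells without 4OHT for 41 of 9954 compared genes, with line 42 higher for 20 and lower for 21. The difference has no test, since each line has 1 array, and both are set against the same ES cell array. Those with the largest differences were Zscan4c, Dppa3, Obox1, Olfr106-ps, Ly6c1 and Slc22a18 on the higher side and Pla2g7, Sox11, Fgf15, Zfy1, S100a4, Bcl11a and Erbin on the lower. For Dppa3 the difference from that array was 4.30 in line 42 and -1.01 in line 21 spheres (log2), and for Bcl11a these differences were -1.68 and 3.89.

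Zscan4c had the largest difference of any gene, log2 11.41, with differences from ES cells without 4OHT of 3.51 in line 42 and -7.90 in line 21 spheres. It was not tested.

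Among 3330 compared probes without a gene name, which the comparison of genes does not use, 42 lay at least 10-fold apart, 31 of them higher in line 42. The top ones were M400013277, at 5776 in line 42 and 4.30 in line 21 spheres against 390 and 586 on the ES cell arrays and 12.3 in reverted cells, and M400012596, at 6629 and 5.40 against 467, 689 and 6.51. In all 294 such probes were at least 2-fold higher (8.83%) and 211 lower (6.34%).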

How the results depend on the processing

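With 1 array per line no array could be left out. No paired analysis was possible because each line has a single sphere array. The counts of 783 higher and 777 lower genes became 658 and 635 with a pseudocount of 10, 748 and 808 with quantile normalization and 876 and 707 without centring. A filter at the 60th percentile left 570 and 508, a 3-fold limit 274 and 299, and limma with the spread of the ES-type arrays 0 and 0. Chosen after seeing the data were a pair of further settings: without the genes of the chromosome runs 521 and 669 remained, and with each run's median subtracted 609 and 742. None of 1558 recomputed differences of named genes turned its direction and 12 moved beyond the tolerance, 11 of them with a pseudocount of 10, where Zscan4c came to 9.85. Of 279 recomputed list medians 22 moved by over 0.2. The largest moves were those of the neural median, from -2.24 to -1.02 with no filter, and of the core pluripotency median, from 0.91 to 0.18 with the mean of each gene's probes and -0.08 without the runs, and of the blood and endothelial median, from -0.18 to -1.12 with the stricter filter, which left 4 genes. A difference of dim genes rests on values near the lowest listed.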
